A study of Mus musculus with 4 samples.

Results

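The basement membrane genes described here are the collagen IV chains Col4a1 and Col4a2, the laminin chains Lama1, Lama5, Lamb1 and Lamc1, the nidogens Nid1 and Nid2, the proteoglycan core protein gene Hspg2 (perlecan) and Sparc. These 10 genes, like the gene lists further below, were chosen by name with earlier results of these data known. Counts of calls beside the shares of all genes therefore describe them and test no excess. Probes were found through the RefSeq accession that the array files give for each probe. 9 of the 10 genes had a probe; none of the probes carried a RefSeq accession of Hspg2, which is therefore not analysed here. The 9 genes had 12 of the 41174 probes other than controls, with 2 probes each for Col4a1, Col4a2 and Sparc and 1 probe each for the other 6 genes. All 12 probes were well above background in all 8 channels and passed the filter on dim probes, and each gene was tested on the probe with its highest mean intensity among 21751 genes or transcripts.

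The samples were D3 cells, a mouse embryonic stem cell line, differentiated as embryoid bodies in medium without leukemia inhibitory factor (LIF), the cytokine that holds mouse embryonic stem cells undifferentiated. The 4 groups were cells treated with siRNA against Pnpla6 at 96 h, control cells at 96 h, cells treated with siRNA against Pnpla6 at 24 h, and control cells at 24 h, each hybridised on 2 arrays. Pnpla6 encodes neuropathy target esterase, an enzyme that hydrolyses phospholipids and lysophospholipids. The siRNA was delivered by lipofection at 1.25 pmol of each siRNA, so silencing was transient, and what the control cells were given is not stated in the labels. Each of the 4 Agilent whole mouse genome arrays carried RNA of silenced and of control cells of the same time in 2 colours. On replicate 1 of each time the silenced cells were in Cy3 and the control cells in Cy5, and on replicate 2 the dyes were exchanged. Nothing in the labels says that the replicates came from separate cultures, so the spread between these arrays may be technical. The p-values below measure no more than that spread. For silenced against control cells it is mostly pooled over all genes, as each gene adds 1 residual degree of freedom to a prior of 33.0. A term for the dye orientation, which coincides with the replicate number, also takes up part of the disagreement between arrays. The SE marked with 2 arrays is this fitted value and not the spread of those 2 arrays.

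Basement membranes are thin sheets of extracellular matrix under epithelia, around endothelia and around muscle, fat and nerve cells. Laminin heterotrimers of an alpha, a beta and a gamma chain assemble on the cell surface, collagen IV forms a covalently cross-linked network, and nidogens and perlecan connect both networks. In embryoid bodies a basement membrane forms between the outer endoderm layer and the inner cells, and laminin with the alpha chain encoded by Lama1 is the first laminin of the mouse embryo together with the one encoded by Lama5. Sparc, also called osteonectin or BM-40, is a secreted protein that binds collagen IV and calcium and is made in large amounts by parietal endoderm.

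Col4a1 and Col4a2 are transcribed in opposite directions from a common stretch of chromosome 8, and their promoter windows are shown because these genes had the most similar profiles of the 9 members across the 8 channels. The windows were taken from RefSeq (GRCm38.p6) and run from 250 bases before to 50 bases after each gene's start. The Col4a1 window lies at chr8:11312777-11313076 on the minus strand, and the Col4a2 window lies at chr8:11312555-11312854 on the plus strand. Capitals mark the 78 bases that both windows contain, chr8:11312777-11312854, which are identical after reverse complementation.
Col4a1: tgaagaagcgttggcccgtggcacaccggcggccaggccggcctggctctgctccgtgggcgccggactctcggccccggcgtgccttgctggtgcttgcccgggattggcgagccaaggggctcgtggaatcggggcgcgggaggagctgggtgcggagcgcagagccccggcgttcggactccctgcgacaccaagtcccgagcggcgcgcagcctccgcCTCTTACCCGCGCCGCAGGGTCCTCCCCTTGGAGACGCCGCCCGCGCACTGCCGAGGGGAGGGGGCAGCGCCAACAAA
Col4a2: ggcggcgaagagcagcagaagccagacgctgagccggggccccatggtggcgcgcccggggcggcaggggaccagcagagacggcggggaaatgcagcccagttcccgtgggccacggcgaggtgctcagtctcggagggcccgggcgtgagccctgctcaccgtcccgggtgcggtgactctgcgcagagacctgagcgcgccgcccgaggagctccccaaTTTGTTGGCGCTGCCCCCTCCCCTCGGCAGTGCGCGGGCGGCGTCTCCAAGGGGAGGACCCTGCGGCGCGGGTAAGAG
The Col4a1 window had a GC content of 74% and the Col4a2 window 73.7%, against a median of 52.7% over the 32851 promoter windows of the table. The Nid1 window, chr13:13437352-13437651 on the plus strand, is shown because Nid1 had the largest difference between silenced and control cells among the members. Its GC content was 64.7%, and capitals mark its matches to the motifs GGGCGG and CCAAT.
Nid1: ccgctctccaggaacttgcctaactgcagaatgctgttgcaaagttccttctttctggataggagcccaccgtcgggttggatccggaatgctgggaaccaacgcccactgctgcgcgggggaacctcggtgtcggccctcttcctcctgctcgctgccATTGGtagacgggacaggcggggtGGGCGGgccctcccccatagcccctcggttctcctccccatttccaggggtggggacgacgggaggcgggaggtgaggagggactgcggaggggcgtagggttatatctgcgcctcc
Windows were held for 7 of the 10 genes, Hspg2 included, and those of Lama1, Lamc1 and Nid2 were not in the table used. Counted on both strands, GGGCGG (the GC box) occurred 1 time in the Col4a1 window, 3 times in the Col4a2 window, 4 times in that of Lama5, 2 times in that of Lamb1, 1 time in that of Nid1 and 5 times in that of Hspg2. The Sparc window held no match to GGGCGG, which was present in 35.7% of all windows. CCAAT occurred 1 time each in the windows of Col4a1, Col4a2, Lamb1 and Nid1, and was present in 37.4% of all windows. AGATAA (the motif of GATA factors, in 11.2% of all windows) and AACAAT (the motif of SOX factors, in 10.72%) had no match in the 7 windows. These matches describe the letters only.

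Between 62.5% and 68.7% of the spots other than controls were well above background in a channel. Median spot intensities were 55 to 63 over a background of 19 to 22 in Cy3, and 114 to 130 over a background of 58 to 64 in Cy5. Of the 2 slides, one carried replicate 2 at 96 h alone and the other the remaining arrays. All 8 pluripotency marker genes of the list used were well above background in all 8 channels. Pnpla6 itself was lower in silenced cells at 24 h, by a log2 difference of -0.87 ± 0.06 (SE, 2 arrays), or 54.9% of the level in control cells (limma, adjusted p = 2.89e-11). At 96 h its log2 difference was 0.01 ± 0.06 (limma, adjusted p = 0.960).

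At 96 h, 4 of the 9 basement membrane genes were higher in silenced than in control cells and none was lower. They were both collagen IV chains and both nidogens, with increases of 1.23-fold to 1.38-fold, while the 4 laminin chains and Sparc did not pass the test. Over all genes tested, 13.4% were called at 96 h, 6.61% as higher and 6.8% as lower in silenced cells, at an adjusted p under 0.05. The median log2 difference was 0.09 over the 9 members and 0.00 over all genes tested. All 4 calls depend on the term for the dye orientation, which coincides with the replicate number: without it, no member was called by limma (4 of 9 had an unadjusted p under 0.05) and the share of all genes called was 0.487%. No member was called either when any 1 of the 4 arrays was left out, a fit in which the dye term could not be kept, with 1 to 4 members at an unadjusted p under 0.05. The authors' deposited log ratios in the same fit with the dye term gave log2 differences of 0.34 to 0.48 for the 4 genes and adjusted p of 0.193 to 0.213 in limma. Fewer cells of a type and less RNA per cell cannot be told apart in RNA from whole cultures.

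**Figure D1:**
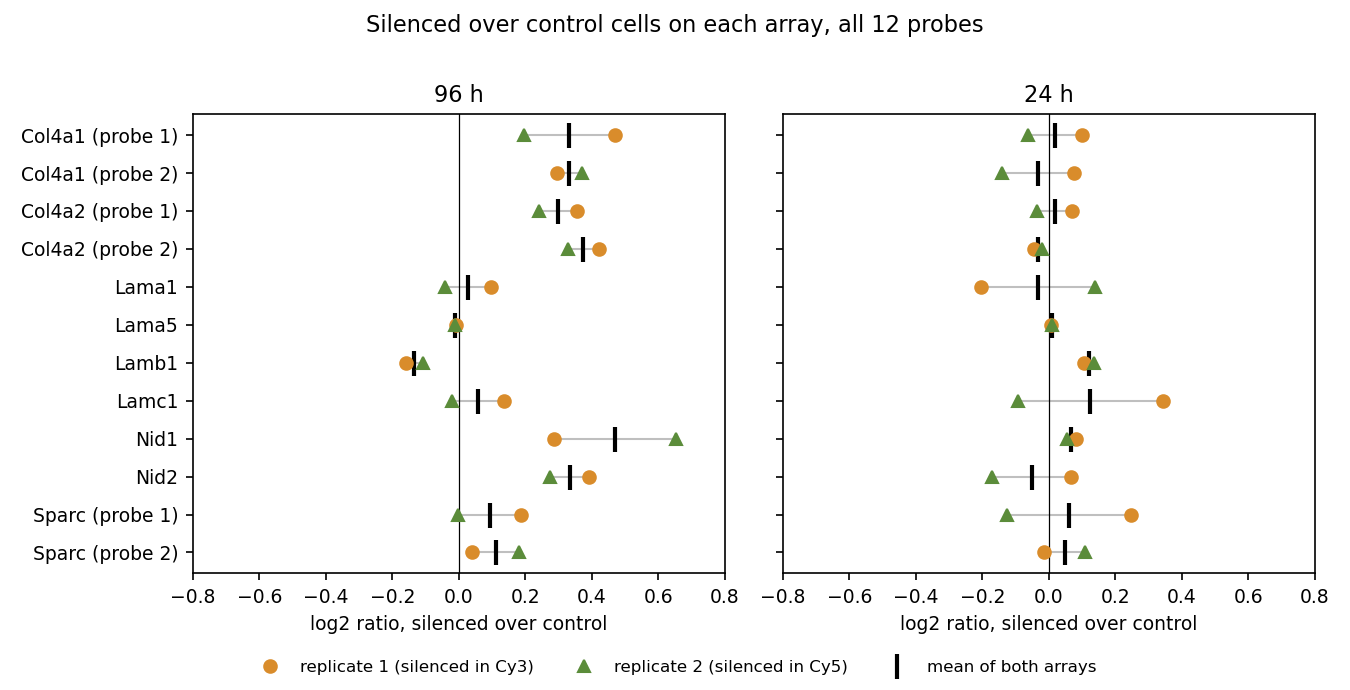
Log2 ratio of silenced over control cells (horizontal axis) for each of the 12 probes of basement membrane genes, at 96 h on the left and at 24 h on the right. Circles are replicate 1, triangles replicate 2 and black ticks the mean of both arrays; at 96 h both arrays lie above 0 for every probe of Col4a1, Col4a2, Nid1 and Nid2, and below 0 for Lamb1.

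Col4a1 and Col4a2 encode the alpha chains of the most widespread collagen IV trimer. Normalized log2 levels of Col4a1 at 96 h were 11.22 and 11.00 in silenced cells, against 10.75 and 10.80 in control cells. Both silenced channels were above both control channels. The log2 difference was 0.33 ± 0.06 (SE, 2 arrays; 0.47 on replicate 1 and 0.19 on replicate 2), a 1.26-fold increase (limma, adjusted p = 0.000217; 0.283 without the dye term). Its second probe gave the same log2 difference of 0.33, with 0.29 on replicate 1 and 0.37 on replicate 2, so the array with the larger difference was not the same for both probes.

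Col4a2 had log2 levels of 9.79 and 9.59 in silenced cells, against 9.44 and 9.35 in control cells at 96 h, again without overlap. The log2 difference was 0.30 ± 0.06 (SE, 2 arrays; 0.36 and 0.24 on replicates 1 and 2), a 1.23-fold increase (limma, adjusted p = 0.000742; 0.240 without the dye term). The second probe of Col4a2 had a log2 difference of 0.37. With the smaller offset of 16 in the background correction the adjusted p of Col4a2 was 0.0526, the only one of the 4 calls lost under that setting.

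Nid1 and Nid2 encode nidogen-1 and nidogen-2, which bind laminin and collagen IV. Nid1 had log2 levels of 12.72 and 12.84 in silenced cells, against 12.43 and 12.19 in control cells at 96 h. The groups did not overlap, and the ratio was larger on replicate 2 (0.65) than on replicate 1 (0.29). The log2 difference of 0.47 ± 0.07 (SE, 2 arrays), a 1.38-fold increase, was the largest among the members (limma, adjusted p = 2.89e-06; 0.157 without the dye term).

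Nid2 had log2 levels of 13.09 and 13.07 in silenced cells, against 12.70 and 12.79 in control cells at 96 h. Both silenced channels were higher, and they differed from each other by less than the control channels did. The log2 difference was 0.33 ± 0.06 (SE, 2 arrays; 0.39 and 0.28 on replicates 1 and 2), a 1.26-fold increase (limma, adjusted p = 0.000204; 0.246 without the dye term).

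The laminin chains did not pass the test at 96 h. Lamb1, the beta chain of the early embryonic laminins, had log2 levels of 10.24 and 10.37 in silenced cells, against 10.40 and 10.48 in control cells. The log2 difference was -0.13 ± 0.06 (SE, 2 arrays; 95% interval -0.26 to -0.01), with an adjusted p of 0.169 in limma. The silenced channel was the lower one on both arrays, and the groups of channels did not overlap. Lamc1, the gamma chain shared by most laminins, had a log2 difference of 0.06 (95% interval -0.07 to 0.19), with 0.14 on replicate 1 and -0.02 on replicate 2. For Lama1 it was 0.03 (-0.11 to 0.17), and for Lama5, the alpha chain that prevails in most later epithelial basement membranes, it was -0.01 (-0.14 to 0.12). These intervals are the fit's own and are not adjusted for the number of genes.

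Sparc had log2 levels of 12.81 and 12.60 in silenced cells, against 12.62 and 12.60 in control cells at 96 h. Replicate 1 gave a ratio of 0.19 and replicate 2 one of -0.0011, and the log2 difference was 0.09 ± 0.06 (SE, 2 arrays; limma, adjusted p = 0.397). The second Sparc probe had a log2 difference of 0.11, with the larger ratio on replicate 2. Over the 9 members, silenced and control channels did not overlap for 5 at 96 h, 4 with higher and 1 with lower values in silenced cells. Over all genes tested, 36.8% did not overlap, 18.7% with higher and 18.1% with lower values.

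**Figure D2:**
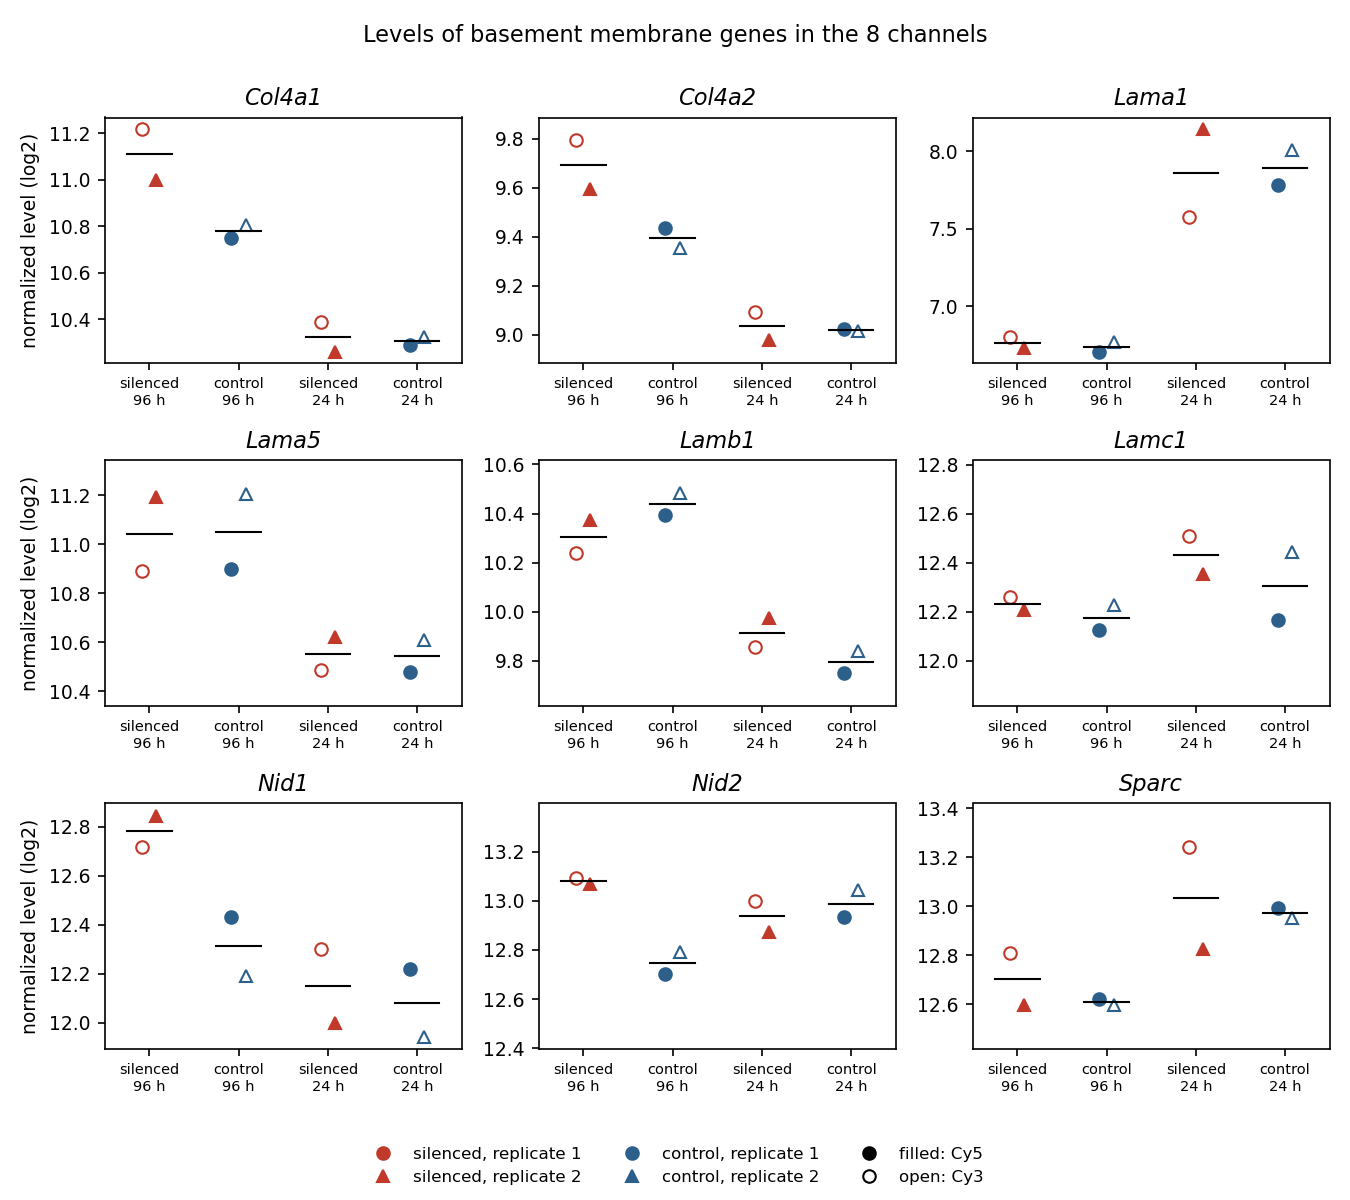
Normalized log2 level (vertical axis, own scale for each gene) of the 9 basement membrane genes in the 8 channels, with silenced left of control cells and 96 h left of 24 h. Circles are replicate 1, triangles replicate 2, filled symbols Cy5, open symbols Cy3 and lines group means; Col4a1 and Col4a2 are highest in silenced cells at 96 h, and Lama1 lies lower in all 4 channels at 96 h than in the 4 at 24 h.

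At 24 h, when Pnpla6 was at 54.9% of its control level, limma called none of the 9 members, with adjusted p between 0.684 and 0.996, and none had an unadjusted p under 0.05. Of all genes tested, 0.372% were called at 24 h, 0.234% as higher and 0.138% as lower in silenced cells. The median log2 difference of the members was 0.02, against 0.00 over all genes. Log2 levels of Col4a1 were 10.39 and 10.26 in silenced cells, against 10.29 and 10.32 in control cells, so the groups overlapped and the log2 difference was 0.02. Nid1 had 12.30 and 11.998 in silenced cells, against 12.22 and 11.94 in control cells. The ratios were small on both arrays (0.08 and 0.05), while the level of Nid1 was higher on replicate 1 than on replicate 2 in both kinds of cells. Lamb1 was the only member whose groups did not overlap at 24 h, with 9.85 and 9.97 in silenced cells, against 9.75 and 9.84 in control cells. Its log2 difference of 0.12 did not pass the test (limma, adjusted p = 0.686), and 19% of all genes tested did not overlap (10.2% higher, 8.82% lower in silenced cells). The largest log2 difference at 24 h, 0.13 for Lamc1, came from 0.34 on replicate 1 and -0.09 on replicate 2.

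The difference between the silencing effects at 96 h and at 24 h was tested in the same fit. The same 4 members passed it, all with a larger value at 96 h, while 6.92% of all genes tested passed, 2.83% with a larger and 4.09% with a smaller value at 96 h. Nid1 differed by 0.40 ± 0.09 (SE) on the log2 scale (limma, adjusted p = 0.00487). For Nid2 the difference was 0.38 ± 0.09 (adjusted p = 0.00403), for Col4a1 0.31 ± 0.09 (0.0232) and for Col4a2 0.28 ± 0.09 (0.0446). None of the 4 passed without the dye term, where adjusted p lay between 0.655 and 0.854 in limma, nor with an offset of 16, where it lay between 0.129 and 0.211. Lamb1 had the opposite sign at the 2 times, with a difference of -0.25 ± 0.09 that missed the threshold (limma, adjusted p = 0.0780).

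Between 24 h and 96 h of differentiation, 5 of the 9 members were called higher and 1 lower in silenced cells, and 4 were called higher and 1 lower in control cells. Over all genes tested, 37.8% were called in silenced cells (18.1% higher, 19.7% lower at 96 h) and 36.7% in control cells (17.9% higher, 18.9% lower). The median log2 difference of the members was 0.39 in silenced and 0.23 in control cells, against -0.03 in both over all genes. These comparisons are between arrays, and both use the same 4 arrays, so that the time course of silenced minus that of control cells equals by arithmetic the difference of the silencing effects above. Values from the first slide only, without replicate 2 at 96 h, are given with each. They rest on 1 array at 96 h and are given without p.

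**Figure D3:**
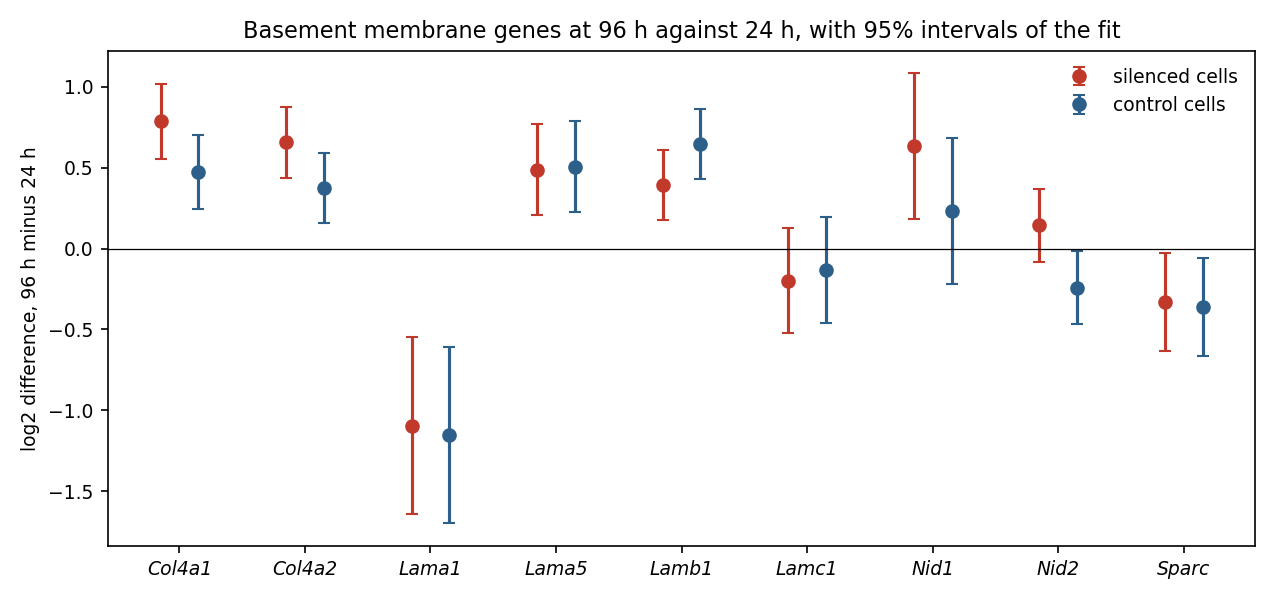
Log2 difference between 96 h and 24 h (vertical axis) for the 9 basement membrane genes in silenced cells (red, left) and control cells (blue, right). Points are the estimates of the single-channel fit and bars its 95% intervals, not adjusted for the number of genes; Lama1 lies near -1.1 in both kinds of cells, and Col4a1, Col4a2, Lama5 and Lamb1 lie above 0 in both.

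The collagen IV chains rose with time in both kinds of cells. Col4a1 log2 levels in silenced cells were 11.22 and 11.00 at 96 h, against 10.39 and 10.26 at 24 h. In control cells they were 10.75 and 10.80 at 96 h, against 10.29 and 10.32 at 24 h. All 4 values at 96 h exceeded all 4 at 24 h, and the log2 difference was 0.79 ± 0.10 in silenced cells (limma, adjusted p = 0.000753) and 0.47 ± 0.10 in control cells (adjusted p = 0.00779). On the first slide alone the differences were 0.87 and 0.50.

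Col4a2 rose by 0.66 ± 0.09 in silenced cells (limma, adjusted p = 0.00134) and by 0.38 ± 0.09 in control cells (adjusted p = 0.0167). The first slide alone gave 0.74 and 0.45. Its 2 probes disagreed over the time course in control cells: with all probes in the table, the tested probe had a log2 difference of 0.42 and the other one -0.05, against 0.70 and 0.36 in silenced cells. With the mean of all probes per gene the increase of Col4a2 in control cells was 0.15 and no longer passed the test (limma, adjusted p = 0.236).

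Lama1 was the only member called lower at 96 h. Its log2 levels in silenced cells were 6.80 and 6.73 at 96 h, against 7.58 and 8.14 at 24 h. In control cells they were 6.71 and 6.77 at 96 h, against 7.78 and 8.005 at 24 h. The groups lay far apart, at 0.468 times the 24 h level in silenced and 0.450 times in control cells, with log2 differences of -1.09 ± 0.23 (limma, adjusted p = 0.00853) and -1.15 ± 0.23 (adjusted p = 0.00699). On the first slide alone they were -0.96 and -1.26. The size depends on how background is handled at these lower intensities: an offset of 16 gave -1.40 in silenced and -1.48 in control cells, and Agilent's processed signals gave -1.80 and -1.94.

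Lama5 and Lamb1 rose in both kinds of cells. Lama5 log2 levels in silenced cells were 10.89 and 11.19 at 96 h, against 10.49 and 10.62 at 24 h. In control cells they were 10.90 and 11.21 at 96 h, against 10.48 and 10.61 at 24 h. Replicate 2 was above replicate 1 in every pair, and the difference was 0.49 ± 0.12 in silenced (limma, adjusted p = 0.0162) and 0.51 ± 0.12 in control cells (adjusted p = 0.0144), or 0.34 and 0.35 on the first slide alone. Lamb1 had 0.39 ± 0.09 in silenced (limma, adjusted p = 0.0135) and 0.65 ± 0.09 in control cells (adjusted p = 0.00150). The first slide alone gave 0.34 and 0.60. The 2 laminin alpha chains thus had opposite signs over time, -1.09 for Lama1 and 0.49 for Lama5 in silenced cells, on the log2 scale of differences.

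Nid1 rose in silenced cells, by 0.63 ± 0.19 (limma, adjusted p = 0.0362), and had a difference of 0.23 ± 0.19 in control cells (adjusted p = 0.399). The call in silenced cells was lost with an offset of 16 (adjusted p = 0.0543) and with Agilent's processed signals (0.0980). The first slide alone gave 0.57 in silenced cells and 0.36 in control cells. Nid2 had a difference of 0.14 ± 0.10 in silenced cells (limma, adjusted p = 0.293) and of -0.24 ± 0.10 in control cells (adjusted p = 0.0911), with 0.10 and -0.23 on the first slide alone. Control channels of Nid2 at 96 h were the lowest of its 8 values and silenced channels at 96 h the highest.

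Lamc1 and Sparc were not called in either time course on all 4 arrays. Lamc1 had a log2 difference of -0.20 ± 0.14 in silenced cells and -0.13 ± 0.14 in control cells (limma, adjusted p = 0.312 and 0.513). On the first slide alone its differences were -0.28 and -0.08. Sparc log2 levels in silenced cells were 12.81 and 12.60 at 96 h, against 13.24 and 12.83 at 24 h, and in control cells 12.62 and 12.60 at 96 h, against 12.99 and 12.95 at 24 h. Each group at 96 h lay below its group at 24 h, but the differences of -0.33 ± 0.13 in silenced and -0.36 ± 0.13 in control cells did not pass the test (limma, adjusted p = 0.0853 and 0.0649). On the first slide alone the differences of Sparc were -0.32 in silenced and -0.26 in control cells. Between times, channels did not overlap for 9 of 9 members in silenced cells and for 7 of 9 in control cells, beside 72.3% (33.3% higher, 39% lower at 96 h) and 73.6% (34.2% higher, 39.4% lower) of all genes tested. With the replicate number as a further term, 8 of 9 members were called in each kind of cells, beside 58.3% of all genes in silenced and 57.3% in control cells.

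The order of the group means differed between genes. For Col4a1 and Col4a2 it was silenced cells at 96 h, control cells at 96 h, then both 24 h groups, which overlapped with each other. For Lama5 both 96 h groups overlapped and lay above both 24 h groups, which also overlapped. For Lamb1 no neighbours overlapped, in the order control 96 h, silenced 96 h, silenced 24 h and control 24 h. For Lama1 and Sparc both 24 h groups lay above both 96 h groups, with overlap within each time. For Lamc1 all neighbouring groups overlapped. Nid1 had only silenced cells at 96 h apart from the next group, and Nid2 had silenced cells at 96 h at the top and control cells at 96 h at the bottom, each apart from its neighbour.

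Across the 8 channels, after the mean of each dye was taken off, 19 of the 36 pairs of members had a positive Pearson correlation and 17 a negative one. The highest were 0.99 for Col4a1 with Col4a2, 0.94 for Lama5 with Lamb1 and 0.91 for Col4a2 with Nid1. The lowest were -0.93 for Lama5 with Sparc, -0.92 for Lamb1 with Sparc and -0.90 for Col4a1 with Lama1. The 8 channels share 4 arrays and fall mainly into 2 times, so these values describe the profiles and carry no p. Lamc1, Sparc and Lama1 were positively correlated with each other, at 0.70 to 0.77, and the correlations of Nid2 with the other members reached at most 0.40.

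**Figure D4:**
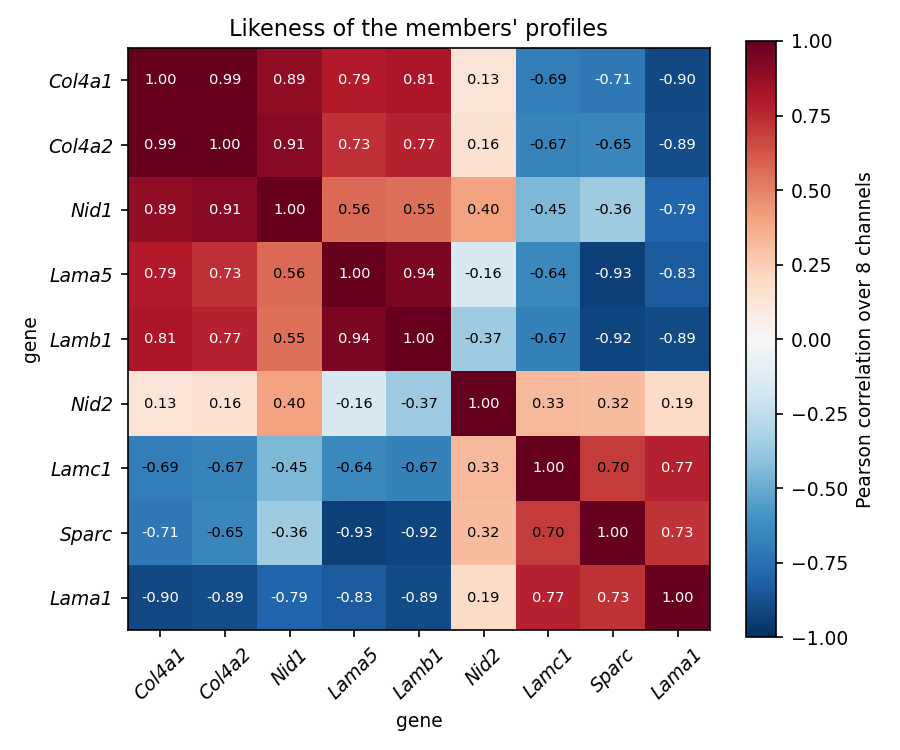
Pearson correlation over the 8 channels (colour and number) between the profiles of the 9 basement membrane genes. Col4a1, Col4a2, Nid1, Lama5 and Lamb1 are positively correlated with each other (0.55 to 0.99), and negatively with Lamc1, Sparc and Lama1 (-0.36 to -0.93).

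The genes whose profiles were most like that of Col4a1, with Pearson correlations of 0.997 to 0.998 over the 8 channels, were Plcd1 (a phospholipase C), Itpr3 (an intracellular calcium channel), Large2 (a glycosyltransferase that modifies dystroglycan, the laminin receptor), Apoc1 (an apolipoprotein) and Saa2 (a serum amyloid A protein). They had log2 differences of 0.23 to 0.44 between silenced and control cells at 96 h and of 0.60 to 1.15 between 96 h and 24 h in silenced cells. Those most like Lama1, each at 0.998, were Ercc3, Gdap2, Dxo, Med8 and Celf1, with differences of -0.45 to -0.91 over time in silenced cells. Among those most like Sparc were Cc2d1a, Kdm5c, Stk35 and Atp6v0a1, at 0.986 to 0.995. Each set was the best among genes with a plain symbol (Rik and numbered Gm names left out), a part of the 13131 with a symbol. The channels share arrays and dyes.

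Of 29 further basement membrane components, 25 had a probe and 18 passed the filter, and 15 of these 18 did not pass the test at 96 h. In silenced cells 1 was called higher and 2 lower, beside 13.4% of all genes called, and the median log2 difference was 0.04 against 0.00 over all genes. Without the dye term none of the 18 was called by limma (2 had an unadjusted p under 0.05). Agrn, the heparan sulfate proteoglycan agrin, was higher by 0.26 (limma, adjusted p = 0.00280; 0.640 without the dye term); its ratio was 0.05 on the first replicate and 0.48 on replicate 2. Fras1, which anchors embryonic epithelia to the matrix beneath, had a log2 difference of -0.52 (limma, adjusted p = 2.10e-07; 0.0691 without the dye term). Its log2 levels at 96 h were 6.31 and 6.27 in silenced cells, against 6.74 and 6.88 in control cells. At 24 h they were 6.17 to 6.24, so only control cells at 96 h stood clear of these low levels. The laminin-related guidance factor Ntn1 had a log2 difference of -0.24 (limma, adjusted p = 0.00698; 0.353 without the dye term). The other collagen IV chains tested, Col4a4, Col4a5 and Col4a6, were not called, nor were Lama4, Lamb2, Lamb3 and Lamc3. Log2 levels of Col4a5, Lama4 and Lamc3 were only 5.95 to 6.34, so a difference in these genes may be missed. At 24 h none of the 18 was called by limma (2 had an unadjusted p under 0.05).

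Of 10 laminin and collagen IV receptor genes, 7 were tested, and 1 was called higher and 1 lower at 96 h (median 0.03). The shares of all genes tested were 6.61% higher and 6.8% lower. Itga1, the alpha subunit of a collagen receptor that binds collagen IV, had log2 levels of 6.92 and 7.22 in silenced cells, against 7.88 and 8.22 in control cells at 96 h. Both silenced values were lower, by 0.97 on replicate 1 and 1.00 on replicate 2. The log2 difference of -0.98 ± 0.06 was called with the dye term (limma, adjusted p = 3.28e-14) and without it (0.00880). From 24 h to 96 h Itga1 rose by 0.66 in silenced and by 1.75 in control cells, and the silencing effect differed between the times by -1.09 (limma, adjusted p = 5.13e-11; 0.0604 without the dye term). Itgb4, the beta subunit of the laminin receptor of hemidesmosomes, was higher in silenced cells by 0.35 (limma, adjusted p = 0.000160; 0.175 without the dye term). Itga3, Itga6, Itgb1, Dag1 and Bcam were not called.

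Of 15 genes for the maturation and secretion of collagen, 13 were tested. In silenced cells at 96 h, 6 were called higher and none lower, beside 6.61% and 6.8% of all genes tested. The median log2 difference of the 13 was 0.16, against 0.00 over all genes. Loxl2, a lysyl oxidase that cross-links collagen IV, had log2 levels of 8.74 and 9.04 in silenced cells, against 8.32 and 8.43 in control cells. The groups did not overlap, and the log2 difference was 0.51 (limma, adjusted p = 2.31e-07; 0.0691 without the dye term). P4ha1, a catalytic subunit of prolyl hydroxylase, was higher by 0.38 (limma, adjusted p = 3.07e-05), from ratios of 0.57 and 0.19. Plod1, a lysyl hydroxylase, was higher by 0.26 (adjusted p = 0.00337) and P3h1, a prolyl hydroxylase of another site, by 0.24 (adjusted p = 0.0114). Without the dye term none of the 13 was called by limma (5 had an unadjusted p under 0.05), and at 24 h none was called with it (1 had an unadjusted p under 0.05).

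Of 10 matrix proteases and inhibitors, all tested, 1 was called lower and none higher at 96 h (median 0.00). Among all genes tested, 6.8% were called lower and 6.61% higher. Timp2, an inhibitor of metalloproteinases, had a log2 difference of -0.20 (limma, adjusted p = 0.0256; 0.413 without the dye term). Mmp2, a protease that cleaves collagen IV, had 0.18 (adjusted p = 0.0520). Over time in silenced cells, Timp2 rose by 1.16 and Mmp2 by 1.64, and in control cells by 1.35 and 1.56.

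**Figure D5:**
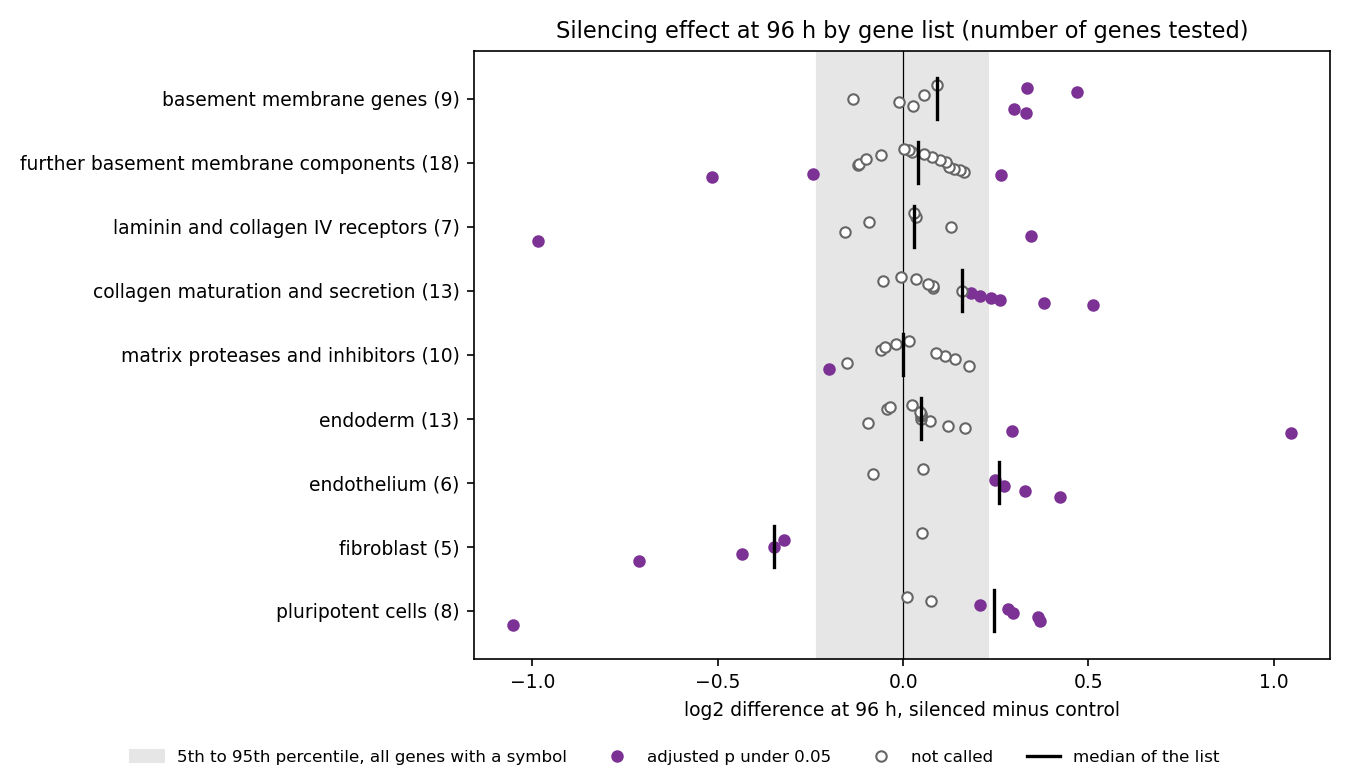
Log2 difference between silenced and control cells at 96 h (horizontal axis) for the tested genes of each list, the number tested in brackets. Filled points passed an adjusted p under 0.05, open points did not, black lines are list medians and the grey band holds the middle of all genes with a symbol; 4 of 9 basement membrane genes, 6 of 13 collagen maturation genes and 4 of 6 endothelial markers are filled to the right of 0, and 4 of 5 fibroblast markers to the left.

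Markers of other cell types that embryoid bodies can hold also differed at 96 h. Of 15 markers of primitive, visceral and parietal endoderm, 13 were tested, and 2 were higher in silenced cells (median 0.05). Among all genes tested, 6.61% were called higher. Cubn, the endocytic receptor cubilin of visceral endoderm, had log2 levels of 8.19 and 8.41 in silenced cells, against 7.38 and 7.14 in control cells. Both silenced values were higher, with a log2 difference of 1.05 ± 0.07 (limma, adjusted p = 2.04e-14; 0.0251 without the dye term), and Amn, its partner protein, was higher by 0.29 (adjusted p = 0.00120; 0.298 without the dye term). Gata4, Gata6, Sox17, Sox7, Foxa2, Dab2 and Hnf4a were not called, and Ttr and Thbd were not well above background in any channel. Log2 levels of Gata4, Sox7, Foxa2 and Hnf4a at 96 h were only 5.999 to 6.33, so a difference in them may be missed. Foxa2 was well above background in 2 of the 8 channels and Sox7 in 4. The summed level of the 13 markers at 96 h was 1706 to 1707 in silenced and 1462 to 1483 in control cells. At 24 h it was 1191 to 1201 in silenced and 1178 to 1188 in control cells. This sum and those below are on the linear scale, where genes at higher levels weigh more. Cubn had the largest log2 difference of the 13 and the highest level in silenced cells at 96 h. The sum therefore does not describe a rise shared by the 13, of which 11 were not called.

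Of 8 endothelial markers, 6 were tested, and 4 were higher in silenced cells (median 0.26), beside 6.61% of all genes called higher. They were Vwf (0.42), Eng (0.33), Pecam1 (0.27) and Tek (0.25), with adjusted p between 1.18e-05 and 0.00479 in limma and between 0.265 and 0.324 without the dye term. Kdr and Tie1 were not called, and the defining markers Cdh5 and Emcn were not well above background in any channel. Log2 levels of Kdr and Tie1 at 96 h were only 6.01 to 6.17, so a difference in them may be missed. The summed level was 1821 to 1971 in silenced and 1515 to 1551 in control cells at 96 h, and 1510 to 1666 in silenced and 1555 to 1592 in control cells at 24 h.

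Of 8 fibroblast markers, 5 were tested, and 4 were lower in silenced cells (median -0.35), beside 6.8% of all genes called lower. Cxcl12, a chemokine, had log2 levels of 8.52 and 8.63 in silenced cells, against 9.36 and 9.21 in control cells, a log2 difference of -0.71 ± 0.06 (limma, adjusted p = 3.12e-10; 0.0301 without the dye term). Dcn (-0.44), Col1a2 (-0.35) and Thy1 (-0.32) were also called, with adjusted p up to 0.000343 in limma and between 0.162 and 0.197 without the dye term, and Lum, Col3a1 and Postn were not well above background in any channel. The summed level was 1748 to 1776 in silenced and 2227 to 2445 in control cells at 96 h, and 1537 to 1588 in silenced and 1550 to 1631 in control cells at 24 h. Of the 8 pluripotency markers, 5 were higher and 1 was lower in silenced cells at 96 h (median 0.25), and 1 was higher at 24 h. Of all genes tested, 6.61% were called higher and 6.8% lower at 96 h, and 0.234% higher at 24 h. Without the dye term none of the 8 was called by limma at either time (4 had an unadjusted p under 0.05 at 96 h and 0 at 24 h). The lower call at 96 h and the call at 24 h were both Pou5f1, named after its values were seen, with log2 ratios of 0.0065 and -2.11 on replicates 1 and 2 at 96 h, and of 1.58 and -0.21 at 24 h. At both times the ratio of Pou5f1 was higher on replicate 1, with silenced cells in Cy3, than on replicate 2. The disagreement between its arrays thus went the same way with the dye orientation at both times. Dppa5a, also named after its values were seen, was 1 of the 5 called higher. Its log2 ratios were -0.84 and 1.26 on replicates 1 and 2 at 96 h, and -0.92 and 1.14 at 24 h. The sign thus followed the dye orientation at both times. The summed level of the 8 pluripotency markers, on the linear scale, followed the dye (389998 to 416630 in Cy5 and 224585 to 270487 in Cy3). Dppa5a had the highest levels of the 8, with log2 values of 17.01 to 18.28. None of the endoderm, endothelial and fibroblast markers tested was called at 24 h by limma, and 1 endoderm marker had an unadjusted p under 0.05. The part of these cell types in the values of the basement membrane genes was not tested.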

How the data were processed

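The members and gene lists were chosen with earlier results of these data known. Per the file headers, the authors scanned the arrays with Agilent Feature Extraction 10.7.1.1, and the deposited files hold spot and background signals as intensity in arbitrary units; 200 ng of total RNA was labelled per the labels. The series table deposited by the authors gives log10 ratios, silenced over control, equal to the scanner files' log ratios within 4.97e-06. In R 4.3.3 with limma 3.58.1, median signals were background corrected (normexp, offset 50), and log2 ratios were loess normalized within each array, with control spots and 1 non-uniform spot left out. Probes well above background on both arrays of at least 1 RNA group were kept (28079), with 1 probe per gene. Silencing was tested by limma on log2 ratios with a mean per time and a dye term, which leaves 1 residual degree of freedom (prior 33.0). Times were compared by limma's single-channel fit after Aquantile scaling, with a dye term, an intraspot correlation of 0.896 and 3 residual degrees of freedom (prior 4.59). P-values were two-sided and Benjamini-Hochberg adjusted over 21751 genes. Both fits were also run on simulated data made to the form of each fit, dye effect included. Such data cannot show whether calls that need the dye term hold on these arrays. The number of arrays limits the precision. Beside all 9 members, the genes named from each list were up to 4 with the smallest p among those past the threshold at 96 h, or the 2 with the smallest p where fewer than 2 passed; some genes that these rules name are not reported here. Alternatives were an offset of 16, no background correction, median centring, the authors' ratios, Agilent's processed signals, quantile normalization, no filter, the mean of all probes, fits with and without the dye and replicate terms, and each array left out.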

Additional observations from a re-analysis of the deposited data

Results flagged for a closer look

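For 4 basement membrane genes the effect of silencing differed between the times by a test of that difference itself. The log2 difference between silenced and control cells was larger at 96 h than at 24 h by 0.40 for Nid1, by 0.38 for Nid2, by 0.31 for Col4a1 and by 0.28 for Col4a2 (limma, adjusted p between 0.00403 and 0.0446). Both arrays at 96 h had a higher value in silenced cells for each of the 4 genes. Without the dye term none of these differences passed (adjusted p between 0.655 and 0.854).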

How the results depend on the processing

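Of 531 values of single members under alternatives, 510 kept their direction, and the 21 that turned belonged to values that did not pass the test. Part of the values for silenced against control cells could not turn, as the estimate stays the same by construction. This holds without the dye term, without the filter on dim probes and with an array of the other time left out. It also holds with the mean of all probes for genes with 1 probe. The count of 510 is therefore no measure of robustness. At 96 h, 4 members called higher became 3 when the offset was 16, 0 on the authors' ratios (4 at an unadjusted p under 0.05 in limma) and 0 without the dye term, which is the replicate block (4 at an unadjusted p under 0.05). For the difference between times, 4 became 0 without the replicate block, 0 when the offset was 16, 0 on the authors' ratios and 2 after median centring (4, 5, 3 and 4 at an unadjusted p under 0.05). Of these, 3, 4, 3 and 4 had the larger value at 96 h. Without the block Col4a1 was not among them (limma, unadjusted p = 0.0553), while Lamb1 was, with a smaller value at 96 h. With each array left out in turn, in a fit without the dye term, no comparison of silenced with control cells called a member (0 each). Over time, silenced cells had 6 members called, 8 with a replicate block, 6 without the dye term and 7 with an intraspot correlation of 0.7 (chosen after seeing the data). Control cells had 5, 8, 7 and 7. Calls over time with an array left out are not given, as 1 array then stands for a time.

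Counts over all genes moved more. At 96 h, 2916 calls (1437 higher, 1479 lower) became 106 without the replicate block (15 higher, 91 lower), 1017 when the offset was 16 (431 higher, 586 lower), 1798 after median centring (1126 higher, 672 lower), 0 with the authors' ratios (3846 at an unadjusted p under 0.05) and 29 to 114 with an array left out (29 with 2 higher and 27 lower without replicate 1 at 96 h, 35 with 1 higher and 34 lower without replicate 2). At 24 h, 81 (51 higher, 30 lower) became 0 without the block, with an offset of 16 and with the authors' ratios (216, 1615 and 1571 at an unadjusted p under 0.05), 42 after median centring (20 higher, 22 lower), 9 with the mean of all probes and 0 with an array left out. For the difference, 1505 became 0 without the block and with the authors' ratios (1297 and 2937 at an unadjusted p under 0.05), 271, 737 and 956 with an offset of 16, median centring and the mean of all probes, and 0 with an array left out. Over time, 8219 calls in silenced cells became 12676 with a replicate block and 10070 to 12501 with an array left out, and 7993 in control cells became 12468 and 10140 to 12089 (the highest counts were without replicate 1 at 24 h in silenced cells and without replicate 2 at 24 h in control cells). Deviations of same-numbered samples, 2 pairs, correlated over genes at 0.46 to 0.70. Same-numbered samples also share the dye orientation, so the dye bias of each probe enters both sides. These values therefore cannot tell whether the numbers pair the samples.

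Values that turned were Lama5 at 96 h (0.041 after median centring, 0.017 on the authors' ratios) and for the difference (0.032 and 0.0065), and at 24 h Col4a1 and Col4a2 with the mean of all probes (-0.0069 and -0.0077). With an array left out, values turned at 24 h for Col4a1 (-0.061 to 0.0996), Col4a2 (-0.036 to 0.071), Lama1 (-0.20 to 0.14), Lamc1 (-0.092 to 0.34), Sparc (-0.13 to 0.25) and Nid2 (-0.17 to 0.068), at 96 h for Lama1 (-0.042 to 0.097), Lamc1 (-0.020 to 0.14) and Sparc (-0.0011 to 0.19), and for the difference for Lama1 (-0.11 to 0.23), Lamc1 (-0.28 to 0.15) and Sparc (-0.16 to 0.22). Apart from fewer arrays, the cause was not tested.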
